A study of Mus musculus with 12 samples.

Results

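The ubiquitin-specific proteases are the largest family of enzymes that remove ubiquitin from proteins, and their autosomal genes were followed here in mice and cells whose proteasome cannot be lipid-anchored through its Rpt2 subunit. Members were the gene symbols that begin with Usp followed by a number and were present in both expression tables. Of 50 such symbols, the 6 on the X or Y chromosome (Usp11, Usp26, Usp27x, Usp51, Usp9x and Usp9y) were left out, which gave 44 members of 25952 symbols in either table. RNA sequencing had been done on untreated livers of E12.5 mouse embryos and on untreated immortalized mouse embryonic fibroblasts (MEFs), each either wild type (WT) or homozygous for the G2A allele of Rpt2 (Rpt2G2A/G2A in the labels, G2A below). This allele changes the glycine that carries the N-myristoyl group of Rpt2, the proteasome ATPase encoded by Psmc1. The labels list 3 samples in each of the 4 groups. The livers came from WT and G2A littermates, and the labels do not say which WT liver shared a litter with which G2A liver. Columns were found for 3 WT and 2 G2A MEF libraries, and the library named G2A MEF 3 was not analysed here. Nothing in the labels says whether the MEF libraries came from separate lines, cultures or embryos, so p-values measure only the spread between these samples, which may be technical.

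As background, ubiquitin is attached to proteins singly or in chains, and chains of several kinds mark a protein for degradation by the proteasome. Usp enzymes are cysteine proteases that trim or remove these marks, and each acts at its own place: Usp14 on the proteasome itself, Usp8 on endosomes, Usp30 on mitochondria, Usp7, Usp16 and Usp22 in the nucleus. A few members, among them Usp39, lack residues needed for catalysis. In liver of this age, most cells are developing red blood cells, which clear much of their protein content through the ubiquitin system as they mature.

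Liver values were FPKM (fragments counted relative to transcript length and to all mapped fragments), with column totals of 792987 to 840762 and an unknown read depth. MEF values were gene reads scaled by 1 factor per library, from 36415586 to 37695116 gene reads. A pair of libraries stood apart from their own groups before any Usp gene was considered. G2A liver 3 lay at 7.91 on the first principal component of the liver values (37.9% of the variance), nearer the WT livers (13.3 to 23.3) than the other G2A livers (-30.6 and -34.9). On the second component (22%) it lay apart from all other livers, at -36.3 against -1.72 to 23.7. WT MEF 3 lay at -72.5 on the first component of the MEF values (73.4%), on the side of the G2A libraries (-51.5 and -55.2) and away from WT MEF 1 and 2 (87.2 and 92). WT MEF 3 and both G2A MEF libraries had high levels of Xist (38335, 9705 and 13311 normalized reads) with Y-linked genes at or near 0, whereas WT MEF 1 and 2 had Xist at 2.06 and 0 and expressed Y-linked genes. Without WT MEF 3, embryo sex and genotype therefore cannot be told apart in MEFs. In liver both sexes occurred in both genotypes. Results that rest on these libraries are given below with and without them.

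The tissue labels were checked against marker genes. All 8 erythroid and all 6 hepatoblast markers were detected in liver. In MEFs the 7 mesenchymal markers summed to 965131, 744698 and 526531 normalized reads in WT and to 387854 and 367029 in G2A, which did not overlap. The 3 neural markers summed to 1201, 2181 and 2960 in WT and to 6378 and 6326 in G2A, with Sox10 at 0. The 6 hepatoblast markers summed to 955, 592 and 32016 in WT and to 4484 and 7649 in G2A, so WT MEF 3 was the highest. The 8 erythroid markers, a list that includes the widely expressed transferrin receptor Tfrc, summed to 3521 to 4944 over both genotypes, with Gata1, Hbb-b1 and Slc4a1 at 0, and Mpo, Lyve1 and Myod1 were also at 0. The G2A livers differed in composition markers as well as genotype. Erythroid markers summed to 1676, 1455 and 2753 FPKM in G2A livers 1, 2 and 3 against 2115 to 3033 in WT, overlapping through G2A liver 3. Without overlap, mesenchymal markers summed to 1316, 1855 and 935 in G2A against 539 to 742 in WT. The same held for epithelial markers (213, 357 and 150 against 133 to 149) and endothelial markers (90.7, 93.6 and 92.5 against 80.4 to 88.5). The remaining liver marker sums overlapped between genotypes. The part of these liver and MEF marker shifts in the Usp results was not tested. In bulk tissue, fewer cells of a type and less RNA per cell cannot be told apart.

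Psmc1 itself, the gene that carries the allele, was measured at 178, 181 and 178 FPKM in WT liver and at 151, 145 and 161 FPKM in G2A liver. In MEFs it was at 7393, 8589 and 6485 normalized reads in WT and at 10658 and 10913 in G2A. The groups did not overlap in either tissue and lay in opposite order, lower in G2A liver and higher in G2A MEFs. Neither difference passed limma's test with Benjamini-Hochberg adjustment over all genes (log2 fold change -0.23, adjusted p = 0.114 in liver; 0.54, adjusted p = 0.282 in MEFs). Both passed without the library that stood apart (-0.27, adjusted p = 0.0173 without G2A liver 3; 0.44, adjusted p = 0.0339 without WT MEF 3). Their difference between tissues was -0.77 (adjusted p = 0.0592) with all libraries and -0.71 (adjusted p = 0.00263) without both. Since the allele is a change within the coding sequence, the mRNA level does not check the genotype labels.

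Promoter sequence was examined because many Usp genes are expressed in most tissues while a few respond to particular signals. RefSeq promoters (GRCm38.p6, matched by symbol) were found for 33 of the 44 members; Usp1, Usp5, Usp14, Usp18, Usp22, Usp33, Usp39, Usp42, Usp43, Usp44 and Usp53 were not matched. In the 250 bases before the start, the GC box GGGCGG, read on both strands, occurred in 23 of 33 member promoters (69.7%) against 32.7% of 32851 promoters in the table. The motif CCGGAAG, the kind of sequence bound by Ets factors, occurred in 6 (18.2% against 6.91%), CCAAT in 6 (18.2% against 33.8%) and TATAAA in 2 (6.06% against 12.4%). The repeat of GAAA, any 2 bases and GAAA again, the core of the element bound by interferon regulatory factors, occurred in 1 member promoter, that of Usp49 (3.03% against 2.98%). These matches describe letters, not binding, and the motifs were chosen after values had been seen. The last 150 bases before the start are shown for 3 members and for Isg15, whose product Usp18 removes from proteins. Usp20 and Usp46 are shown as GC-box promoters of the member with the smallest p in MEFs and of a member that was lower in G2A liver, and Usp49 and Isg15 for the interferon-type repeat. Capitals mark GGGCGG or its reverse complement in the first pair and that GAAA repeat in the other.
Usp20 (chr2:30982129-30982278, plus strand): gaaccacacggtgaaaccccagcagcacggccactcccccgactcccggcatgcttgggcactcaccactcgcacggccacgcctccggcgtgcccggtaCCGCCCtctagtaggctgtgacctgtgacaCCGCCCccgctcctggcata
Usp46 (chr5:74068412-74068561, minus strand): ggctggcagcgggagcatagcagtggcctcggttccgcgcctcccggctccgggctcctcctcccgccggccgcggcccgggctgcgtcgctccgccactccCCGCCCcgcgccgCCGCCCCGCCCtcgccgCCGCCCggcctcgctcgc
Usp49 (chr17:47630540-47630689, plus strand): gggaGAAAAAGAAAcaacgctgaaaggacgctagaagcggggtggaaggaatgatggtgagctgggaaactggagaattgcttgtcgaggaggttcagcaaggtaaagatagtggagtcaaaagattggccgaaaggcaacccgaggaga
Isg15 (chr4:156200819-156200968, minus strand): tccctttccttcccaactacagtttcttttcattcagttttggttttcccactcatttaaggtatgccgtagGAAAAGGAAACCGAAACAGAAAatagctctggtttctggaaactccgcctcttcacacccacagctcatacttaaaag
The Usp20 stretch holds 2 GC boxes, the nearer beginning 20 bases before the start, and the Usp46 stretch holds 4, the nearest at 18 bases. Usp49 has a single interferon-type repeat 146 bases before the start, while Isg15 has 3 overlapping copies, the nearest at 66 bases.

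Levels per length differed widely among the members. In WT liver, Usp7, which removes ubiquitin from p53 and its ligase Mdm2, was highest at 85.1 ± 3.61 FPKM (SD, n = 3). Usp1, which removes ubiquitin from Fancd2 and Pcna during DNA repair, followed at 73.2 ± 3.31, and Usp39, a spliceosome component, at 62.3 ± 2.76. The ranges of these 3 did not overlap except for Usp39 with the next member, Usp10. Usp53 (1.69 ± 0.209), Usp2 (1.29 ± 0.166) and Usp13 (1.12 ± 0.210) were the lowest of the members tested, and the libraries of Usp2 and Usp13 overlapped. In all, 25 members were at 10 FPKM or more, and 4 (Usp29, Usp35, Usp43 and Usp50) were under 1 FPKM and too low to be tested.

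In WT MEFs, levels per length were taken as normalized reads per kilobase of annotated exon, scaled to the library's total. Usp1 was highest at 73.8 ± 14.0, followed by Usp5, which takes apart free ubiquitin chains, at 45.6 ± 5.99 and Usp15, a regulator of signalling ligases, at 44.5 ± 10.3, the last pair overlapping. Usp53 (2.17 ± 1.04), Usp35 (1.19 ± 0.402) and Usp13 (0.255 ± 0.399) were the lowest of those tested; Usp13 is a close relative of Usp5 that also binds ubiquitin chains. Usp44, which removes ubiquitin from histone H2B, passed the filter in liver and not in MEFs, where it had 6.18 to 9.86 normalized reads. Across the 44 members the order of WT levels was similar in both tissues (Spearman's rho 0.859 across genes, a description only, since genes are not independent and long and short exon models enter both scales).

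No Usp member passed the test between WT and G2A liver, and 21 had fold changes above 0 and 19 below. Of 40 members tested with limma, 0 passed at an adjusted p under 0.05, where 0.0232% of all 12938 genes did. At an unadjusted p under 0.05, 2 were higher (background 9.07%) and 5 lower (12.4%), together 7 of 40 against 21.4% of all genes. The WT and G2A libraries did not overlap for 4 members that were higher in G2A (background 11.8%) and 8 that were lower (15.7%), together 12 of 40 against 27.5%. The median log2 fold change of the members was 0.0038, that of all genes 0.014, and 29 members lay within 0.2 of 0. The sign of the members' median turned with the scaling, at -0.017 with median-ratio scaling and -0.036 with quantile normalization.

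Usp14 is the Usp enzyme that binds the proteasome and is activated there. It was at 52.0, 52.3 and 52.9 FPKM in WT liver and at 42.3, 39.4 and 50.6 FPKM in G2A liver. All 3 G2A livers lay below all WT livers, with G2A liver 3 close to them. The G2A mean was 0.841 times that of WT (log2 fold change -0.25, SE 0.09, limma adjusted p = 0.202), and without G2A liver 3 the difference passed the test (-0.35, adjusted p = 0.0143). Usp14 overlaps Thoc1 on the other strand, which was at 18.4 to 19.2 FPKM in WT and 16.8 to 17.9 in G2A. The other 2 deubiquitinases of the proteasome belong to other families. Uchl5, on the ubiquitin receptor Rpn13, was at 47.0, 49.6 and 48.2 FPKM in WT, compared with 37.6, 37.1 and 44.9 in G2A (adjusted p = 0.152; 0.0128 without G2A liver 3). Psmd14, the lid subunit that cuts chains off as substrates enter, was at 90.0, 99.0 and 96.3 in WT and at 82.4, 77.3 and 98.5 in G2A, where the groups overlapped through G2A liver 3 (adjusted p = 0.415; 0.0379 without it).

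Usp39 (chr6:72268672-72295178 on the minus strand of NCBIM37) gave the lowest fold change among members above 10 FPKM. It was at 60.1, 65.4 and 61.5 FPKM in WT, compared with 50.7, 44.2 and 56.3 in G2A, with no overlap (log2 fold change -0.31, SE 0.10, limma adjusted p = 0.152; -0.39, adjusted p = 0.0219 without G2A liver 3). Usp10 (chr8:122434260-122481460, plus strand), a cytoplasmic enzyme that acts on p53 and binds the stress-granule protein G3bp1, was at 57.1, 61.9 and 59.8 in WT and at 48.5, 45.5 and 54.8 in G2A. Its groups were also apart (log2 fold change -0.26, adjusted p = 0.149; -0.34, adjusted p = 0.0181 without G2A liver 3). For these genes, as for Usp14, G2A liver 3 was the G2A library nearest to WT.

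Of the 9 nuclear and chromatin members tested in liver, 2 were lower without overlap (background 15.7%). Without G2A liver 3 the test called 1 higher (background 12.4%) and 3 lower (12%). Usp44 had the lowest ratio of G2A to WT among the members tested, at low levels. It was at 1.98, 2.47 and 3.05 FPKM in WT, compared with 1.29, 1.10 and 1.73 in G2A, which did not overlap (log2 fold change of FPKM + 1 -0.56, adjusted p = 0.14; -0.66, adjusted p = 0.0329 without G2A liver 3). Usp7 was at 85.3, 81.4 and 88.6 in WT and at 65.5, 59.7 and 86.3 in G2A, so G2A livers 1 and 2 were below every WT liver while G2A liver 3 lay among them (-0.28, adjusted p = 0.282; -0.44, adjusted p = 0.014 without it). Usp22, the deubiquitinase of the SAGA coactivator, went the other way in the same 2 livers, at 40.2 and 38.4 FPKM against 31.6, 26.4 and 25.9 in WT, and G2A liver 3 was at 25.0. Its difference passed without that liver (0.48, adjusted p = 0.0229) and not with it (0.27, adjusted p = 0.436). Usp49, a histone H2B deubiquitinase that overlaps Med20 and Tomm6, was at 7.27, 7.79 and 7.35 in WT and at 6.88, 6.21 and 6.35 in G2A. Those groups did not overlap, and its adjusted p was 0.242 with and 0.173 without G2A liver 3.

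Of the members that work with the activator Wdr48 (UAF1), Usp46 was at 21.0, 20.5 and 20.2 FPKM in WT, compared with 17.3, 17.1 and 19.3 in G2A, without overlap (-0.19, adjusted p = 0.183; -0.25, adjusted p = 0.0297 without G2A liver 3). Its relative Usp12 stayed between 14.0 and 15.4 FPKM in all 6 livers (log2 fold change -0.00, SE 0.06). Usp1 was at 71.2, 77.0 and 71.4 in WT and at 69.0, 63.5 and 73.6 in G2A, and its groups overlapped.

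Among members with higher values in G2A liver, Usp47, which acts on DNA polymerase beta, was at 28.6, 28.4 and 27.0 FPKM in WT, compared with 32.7, 31.9 and 29.5 in G2A, with no overlap (log2 fold change 0.16, SE 0.06, adjusted p = 0.22; 0.20, adjusted p = 0.0493 without G2A liver 3). Usp53, a member found at tight junctions, was at 1.88, 1.72 and 1.46 in WT and at 2.24, 2.42 and 2.14 in G2A (0.29, adjusted p = 0.198; 0.31, adjusted p = 0.0955). Usp40 was at 6.78 to 7.22 in WT and 7.34 to 9.06 in G2A, and Usp33 at 18.9 to 19.76 in WT and 19.79 to 21.9 in G2A. Neither pair of groups overlapped, with adjusted p of 0.278 and 0.413. Usp2, a low-abundance member under circadian control, was at 1.32, 1.10 and 1.43 in WT and at 2.32, 2.09 and 1.30 in G2A, where G2A liver 3 again lay among the WT livers (0.33, adjusted p = 0.299; 0.49, adjusted p = 0.0344 without it).

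Of the 6 members of endosomes and other membranes, none passed the test in liver with G2A liver 3 (0.0232% of all genes did) or without it (24.4%). Of the 6 only Usp33 had groups that did not overlap, against 27.5% of all genes. Usp8, which spares endosomal receptors from degradation, was at 19.3 to 21.0 FPKM in WT and 20.8 to 21.7 in G2A (0.09, SE 0.06, adjusted p = 0.416). Usp19, which is anchored in the endoplasmic reticulum, was at 28.1 to 31.0 in WT and 28.9 to 32.7 in G2A (0.07, SE 0.07). Usp20 was at 3.79 to 4.42 in WT and 3.59 to 4.03 in G2A, and Usp30 at 6.91 to 7.68 and 7.40 to 8.73. Usp32 was at 26.5 to 31.5 in WT and at 24.6, 19.8 and 32.9 in G2A, where G2A livers 1 and 2 were below and G2A liver 3 above every WT liver. Its log2 fold change was -0.17 with all livers and -0.36 without G2A liver 3 (limma adjusted p = 0.0725). Usp5 did not overlap either, at 48.2 to 50.9 in WT and 45.4 to 47.5 in G2A, by a small amount (-0.09, SE 0.05, adjusted p = 0.338).

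**Figure D1:**
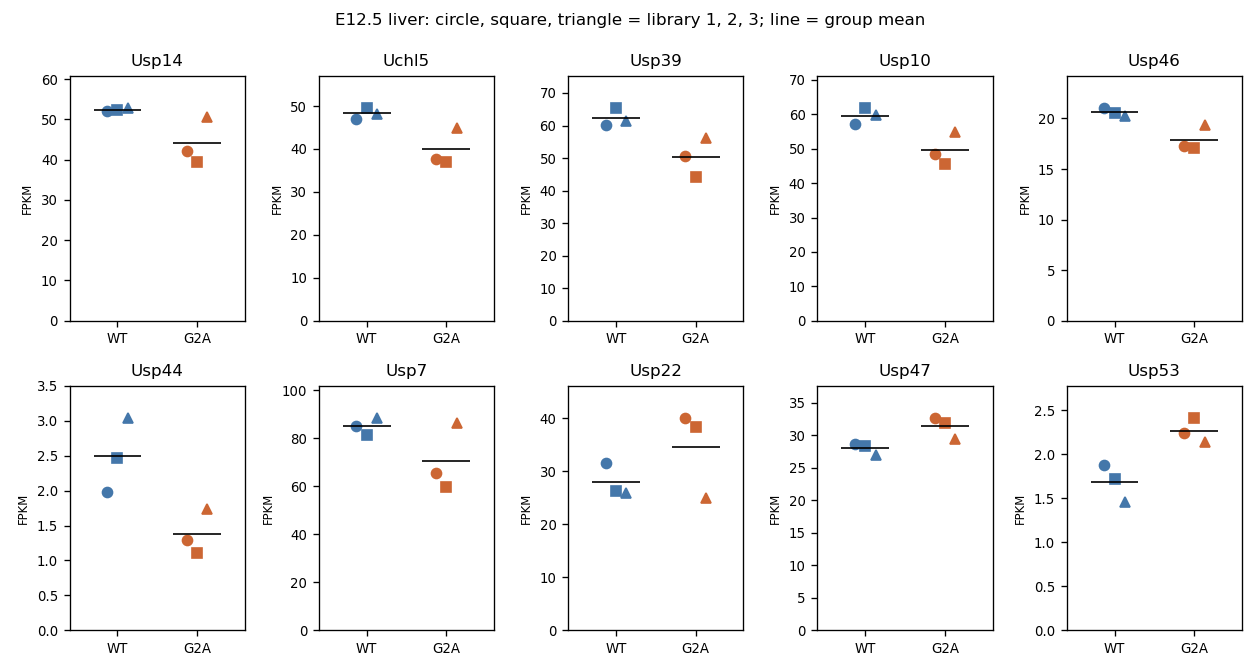
FPKM in each liver (y axis from 0) for 9 members and Uchl5, with WT and G2A side by side; circles, squares and triangles are libraries 1, 2 and 3 and lines are group means. G2A liver 3 (triangle) lay nearer to WT than G2A livers 1 and 2 for Usp14 (50.6 against 42.3 and 39.4 FPKM), Usp7 (86.3 against 65.5 and 59.7) and Usp22 (25.0 against 40.2 and 38.4).

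Without G2A liver 3, 11 members passed: Usp2, Usp22 and Usp47 were higher (background 12.4%), and Usp7, Usp10, Usp14, Usp15, Usp16, Usp39, Usp44 and Usp46 were lower (12%), 11 of 40 against 24.4% of all genes. The share of members called was close to that of all genes. Leaving out any other liver gave 0. G2A liver 3 was nearer the WT mean than both other G2A livers for 28 of the 40 members (70%), against 53.3% of all genes tested. The members' median absolute deviation from the WT mean was 0.17 and 0.191 (log2) in G2A livers 1 and 2 and 0.0805 in G2A liver 3, against 0.0383 to 0.0533 in the WT livers. Erythroid, mesenchymal and epithelial marker sums (above) ordered the G2A livers in the same way, with G2A liver 3 nearest to WT. Some other marker sums did not. G2A liver 3 was the farthest from WT in hepatoblast (12755 FPKM against 9077 to 11334 in WT) and megakaryocyte markers (675 against 510 to 611). The same held for haematopoietic progenitor (203 against 111 to 145) and neural markers (8.57 against 16.5 to 27.0). The part of cell composition in these results was not tested.

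**Figure D2:**
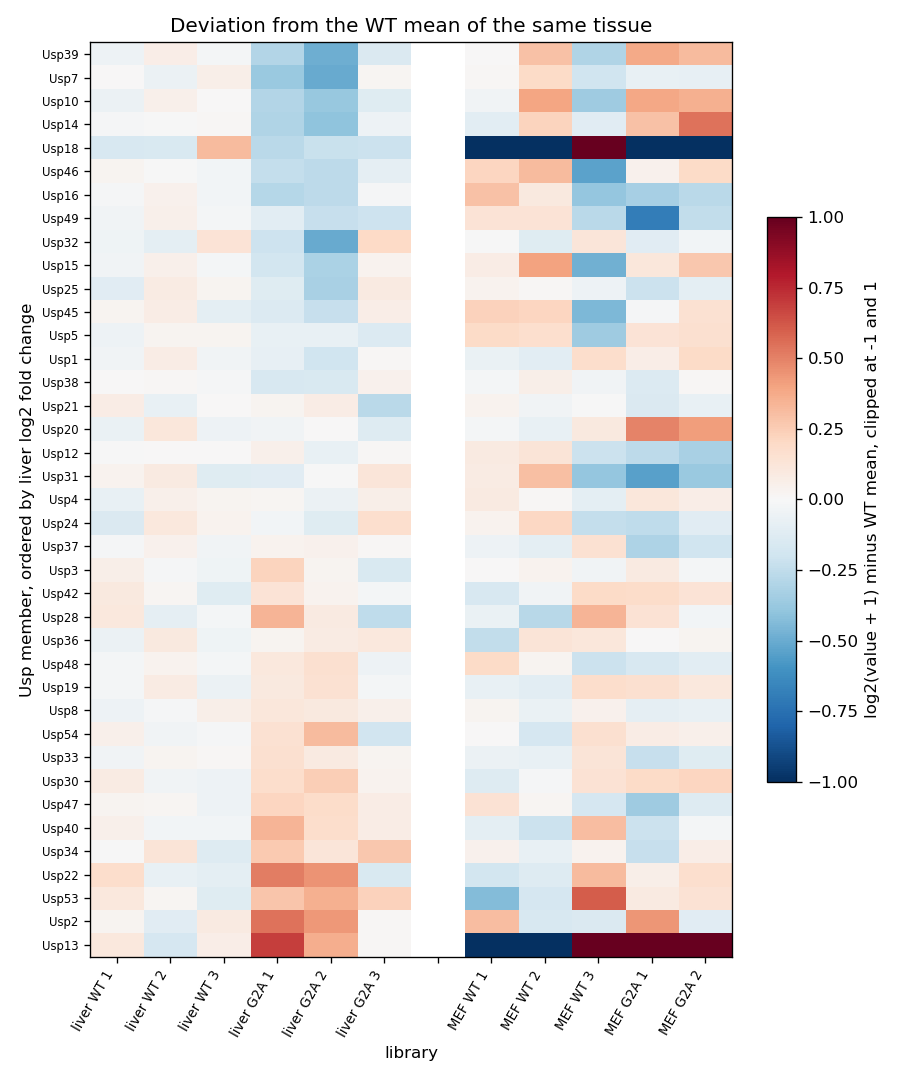
Deviation of each library from the WT mean of its tissue, in log2(value + 1), for the 39 members tested in both tissues, ordered by the liver fold change (red higher, blue lower, colours end at -1 and 1). In liver, G2A 1 and G2A 2 carry the blue block of lower members and the red block of higher ones, while G2A 3 is pale; in MEFs, WT 3 deviates from WT 1 and WT 2 in many members.

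In MEFs no member passed limma's test either, and Usp20 and Usp14 had the smallest unadjusted p-values in that test. Of 40 tested, 0 passed limma's test (0% of all 13241 genes). On the recovered reads 0 passed edgeR's test (2 at an unadjusted p under 0.05) and 1, Usp20, passed DESeq2's, which called 1013 genes in all. At an unadjusted p under 0.05 limma gave 2 that were higher (background 6.9%) and 0 that were lower (7.48%), against 14.4% of all genes in either direction. The genotype groups did not overlap for 4 members that were higher in G2A (Usp14, Usp20, Usp30 and Usp39; background 18.9%) and 6 that were lower (Usp8, Usp12, Usp21, Usp25, Usp33 and Usp37; background 18%), together 10 of 40 against 36.8%. The members' median log2 fold change was 0.024, against 0.015 for all genes, and its sign turned when any single library was left out (-0.048 to -0.0015).

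Usp20 (chr2:30837799-30879106, plus strand of NCBIM37), a close relative of Usp33 that acts on membrane receptors and in cholesterol synthesis, gave the smallest p of the members in MEFs. It was at 911, 879 and 991 normalized reads in WT and at 1305 and 1240 in G2A. Both G2A libraries were above all 3 WT libraries, WT MEF 3 included, and the G2A mean was 1.37 times that of WT. The log2 fold change was 0.46 (SE 0.13; limma adjusted p = 0.282; DESeq2 adjusted p = 0.0134; 0.51, limma adjusted p = 0.025 without WT MEF 3). Usp33, its relative, was lower in G2A at 2022 and 2179 against 2280, 2257 and 2586, and that difference did not pass (-0.18, adjusted p = 0.515; -0.11, adjusted p = 0.414 without WT MEF 3).

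Usp14 was at 4560, 5713 and 4526 normalized reads in WT MEFs and at 6022 and 7134 in G2A MEFs. The groups did not overlap, in the opposite order to liver (log2 fold change 0.42, SE 0.16, adjusted p = 0.33; 0.36, adjusted p = 0.129 without WT MEF 3). Uchl5 was at 1583, 1893 and 1272 in WT and at 2006 and 2059 in G2A, and Psmd14 at 5260, 5788 and 4335 in WT and at 5927 and 6157 in G2A. Both were without overlap and past no threshold (adjusted p = 0.417 and 0.48). Usp39 was at 3599, 4419 and 2927 in WT and at 4675 and 4473 in G2A (0.35, SE 0.19, adjusted p = 0.444; 0.20, adjusted p = 0.279 without WT MEF 3). For Usp10, G2A (5695 and 5570) lay between WT MEF 2 (5708) and the other WT libraries (4246 and 3401), with a log2 fold change of 0.37 that was 0.19 without WT MEF 3.

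Among the lower members, Usp12 was at 2049, 2106 and 1664 in WT and at 1608 and 1541 in G2A. WT MEF 3 was close to the G2A libraries, and the difference passed without it (-0.29, adjusted p = 0.412 with all; -0.40, adjusted p = 0.0322 without). Usp31 was at 1450, 1682 and 1046 in WT and at 937 and 1054 in G2A, and Usp16, which removes ubiquitin from histone H2A, at 3641, 3177 and 2277 in WT and at 2370 and 2463 in G2A. In both the value of WT MEF 3 lay with the G2A libraries, and both passed without it (-0.65, adjusted p = 0.0207, and -0.49, adjusted p = 0.0242). Usp16 overlaps the far more abundant Cct8 on the other strand, which was at 13165 to 19779 normalized reads over the MEF libraries. Usp13 had 6.18 and 8.35 normalized reads in WT MEF 1 and 2 but 186 in WT MEF 3, 147 in G2A 1 and 168 in G2A 2. The 3 libraries with more Usp13 were thus those with high Xist, and they included 1 WT library. The log2 fold change was 2.76 (adjusted p = 0.443) and 4.27 without WT MEF 3 (adjusted p = 0.00171).

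The membrane and endosomal members that did not overlap included Usp8 (3769, 3525 and 3806 in WT, 3484 and 3517 in G2A), by a small amount (-0.08, adjusted p = 0.719). Usp30, which opposes the removal of mitochondria, was at 1156, 1252 and 1396 in WT and at 1443 and 1469 in G2A (0.20, adjusted p = 0.503). Usp19 was at 5260, 5175 and 6288 in WT and at 6199 and 5982 in G2A, and Usp32 at 2461, 2265 and 2687 in WT and at 2282 and 2419 in G2A. Their groups overlapped, for Usp19 through WT MEF 3 alone. Usp7 (6966 to 9121 in WT, 7549 and 7595 in G2A), Usp22 (3111 to 4394, and 3677 and 3964), Usp5 (6128 to 8932, and 8623 and 8761) and Usp54 (1255 to 1571, and 1460 and 1483) overlapped as well. Usp21, Usp25 and Usp37 did not, with log2 fold changes of -0.11, -0.15 and -0.25.

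Without WT MEF 3, 5 members passed: Usp13 and Usp20 were higher (background 11.7%) and Usp12, Usp16 and Usp31 lower (11.5%), 5 of 40 against 23.2% of all genes. WT MEF 3 was nearer the G2A mean than the mean of WT MEF 1 and 2 for 25 of 40 members (62.5%), against 57.4% of all genes. With embryo sex in the model, a choice made after seeing the data, Usp20 had a log2 fold change of 0.36, Usp14 of 0.53, Usp39 of 0.64 and Usp10 of 0.73, and none of these 4 passed. WT MEF 3 lay near the G2A libraries for the other 4 members called without it. Small values under that model were therefore fixed in advance, and no conclusion about sex follows from them. Usp12 was at -0.08, Usp31 at -0.07, Usp13 at -0.24 and Usp16 at 0.09.

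Usp18 (chr6:121195924-121220934, plus strand of NCBIM37), which strips the ubiquitin-like protein Isg15 and dampens the type I interferon receptor, was set by 1 library. It was at 29.9 and 18.8 normalized reads in WT MEF 1 and 2, at 3971 in WT MEF 3, and at 61.1 and 63.7 in the G2A libraries. WT MEF 3 was thus 62.3-fold over the highest other library. Isg15 itself was at 78.3, 73.1 and 6110 in WT and at 69.0 and 58.8 in G2A, 78.0-fold over the highest other. The enzymes that attach Isg15 were high in the same library, Uba7 by 14.2-fold, Ube2l6 by 9.19-fold and Herc6 by 3.67-fold. Other interferon-induced genes, looked at after these values were seen, followed: Irf7 was at 6357 normalized reads in WT MEF 3 and at 28.2 to 45.1 elsewhere, and Ifit1 at 7527 against 69.9 to 165. The fold change of Usp18 was -1.08 with all libraries (SE 2.38, adjusted p = 0.849) and 1.36 without WT MEF 3 (adjusted p = 0.0521), so its sign rested on that library.

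In liver Usp18 was at 1.94, 1.96 and 3.11 FPKM in WT, compared with 1.74, 1.82 and 1.85 in G2A, which did not overlap (-0.23, SE 0.15, adjusted p = 0.413). WT liver 3 was the highest, and without it the fold change was -0.08 (adjusted p = 0.805). Isg15 was also highest there, at 21.2 FPKM against 2.65 to 4.60 in the other 5 livers.

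**Figure D3:**
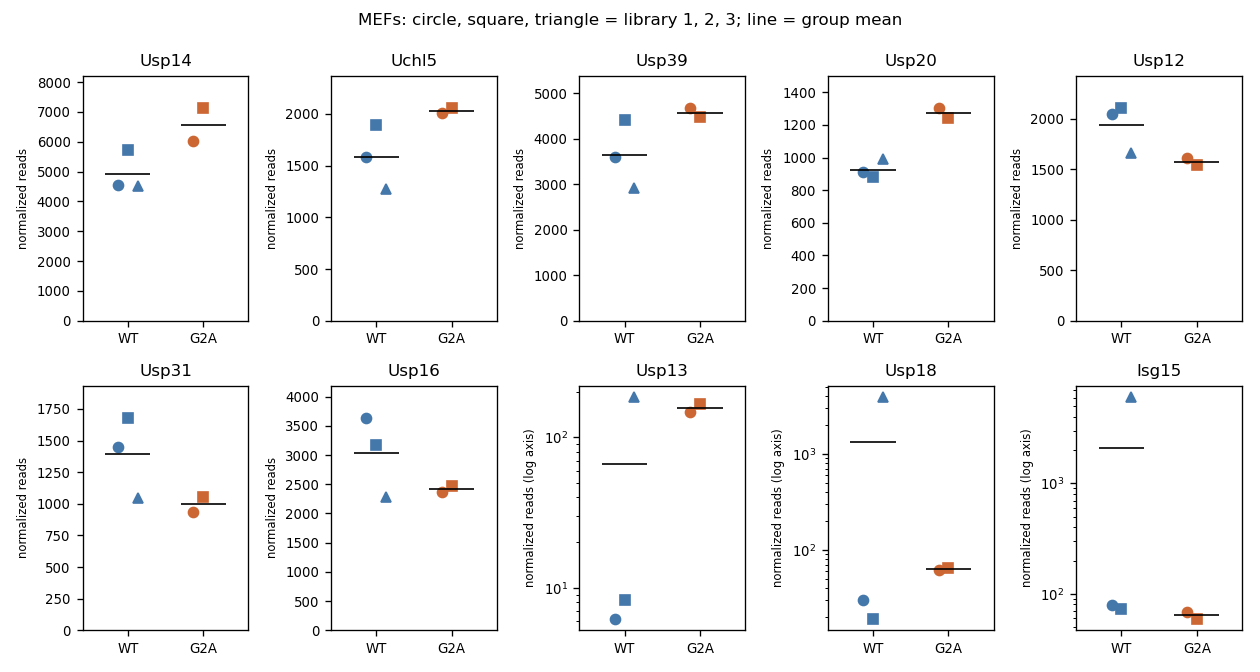
Normalized reads in each MEF library for 8 members, Uchl5 and Isg15 (y axis from 0; log axis for Usp13, Usp18 and Isg15); circles, squares and triangles are libraries 1, 2 and 3 and lines are group means. Usp20 and Usp14 lie higher in both G2A libraries, WT MEF 3 (triangle) lies with G2A for Usp12, Usp16, Usp31 and Usp13, and it alone is high for Usp18 (3971) and Isg15 (6110).

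The 2 tissues were then compared directly, through the difference of their log2 fold changes; they share no library. Of 39 members tested in both, 0 passed (2.21% of 10818 genes did) and 5 had an unadjusted p under 0.05 (background 23.6%). These were Usp14 (liver minus MEF -0.67, SE 0.18, adjusted p = 0.0797), Usp20 (-0.51, SE 0.16, adjusted p = 0.0979), Usp39 (-0.65, SE 0.21, adjusted p = 0.121), Usp47 (0.40, SE 0.15, adjusted p = 0.172) and Usp10 (-0.64, SE 0.24, adjusted p = 0.176). The genotype groups did not overlap in either tissue and lay in opposite order for 3 members, Usp14 and Usp39 (lower in G2A liver, higher in G2A MEFs) and Usp33 (higher, then lower), against 9.6% of all genes. For 0 members did they do so in the same order (2.34%). Fold changes had opposite signs for 18 members and the same sign for 21.

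Without G2A liver 3 and WT MEF 3, 11 members passed the test of the difference, against 37.8% of all genes. Usp14 was among them (-0.71, adjusted p = 0.0115), as were Usp39 (-0.59, adjusted p = 0.0114), Usp10 (-0.53, adjusted p = 0.0379), Usp20 (-0.52, adjusted p = 0.0162) and Usp47 (0.53, adjusted p = 0.0123). Embryo sex and genotype coincide in the MEF libraries of that comparison.

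**Figure D4:**
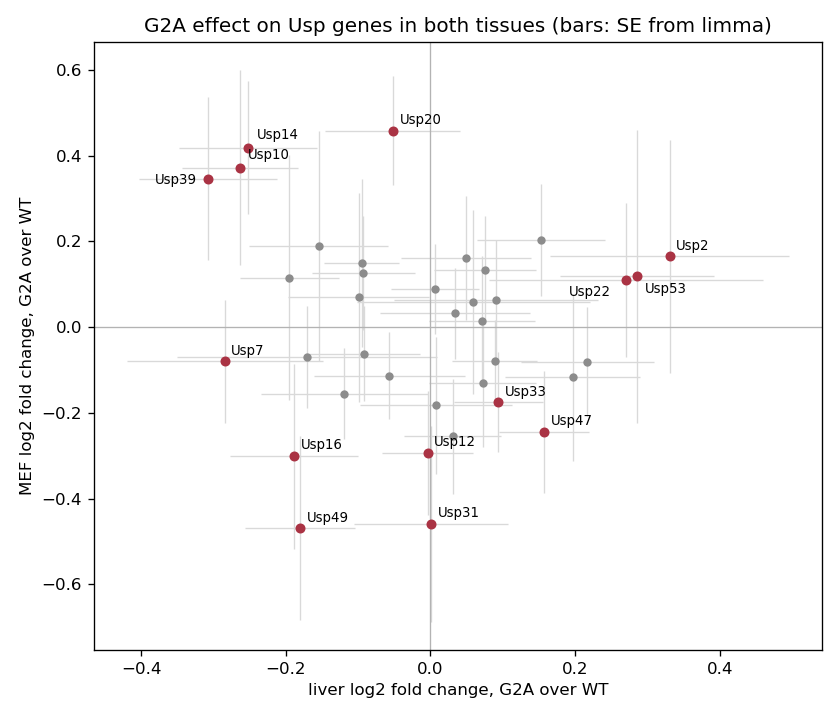
Log2 fold change of G2A over WT in liver (x axis) and in MEFs (y axis) for 37 members tested in both, with bars of 1 SE from limma; Usp13 and Usp18, whose MEF values depend on WT MEF 3, are left out, and red points are named members. Usp14, Usp39 and Usp10 lie at upper left (lower in G2A liver, higher in G2A MEFs), Usp47 and Usp33 at lower right, and most others lie near 0 on both axes.

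Other deubiquitinases and genes that work with Usp enzymes were examined for comparison. Of 32 deubiquitinases outside the family tested in liver, 0 passed, with 6 at an unadjusted p under 0.05 (2 higher, 4 lower), where 21.4% of all genes had such a p, and the groups did not overlap for 2 that were higher and 5 that were lower (27.5% of all genes in either direction). Without G2A liver 3, 1 was called higher and 4 lower, against 24.4% of all genes. Their median log2 fold change was -0.023. The lower ones were Josd2 (118 ± 1.31 FPKM in WT, 94.9 ± 4.82 in G2A; adjusted p = 0.0902; 0.0126 without G2A liver 3), Cops5 (adjusted p = 0.113; 0.0195 without it), Uchl3, Uchl5 and Bap1. In MEFs 0 of 33 passed (3 higher and 3 lower at an unadjusted p under 0.05, a p that 14.4% of all genes had). Without overlap 10 were higher and 7 lower (36.8% of all genes in either direction), and the median was 0.033. Without WT MEF 3, 2 were called higher and 2 lower, against 23.2% of all genes. Uchl1, a deubiquitinase of neurons and some cultured cells, was at 213, 349 and 2646 normalized reads in WT MEFs and at 3707 and 3463 in G2A, where WT MEF 3 again lay toward G2A. Of 23 Usp partners tested in each tissue 0 passed, with medians of -0.029 in liver and -0.030 in MEFs. At an unadjusted p under 0.05, 1 was higher and 2 lower in liver (21.4% of all genes), and 3 were higher in MEFs (14.4%). Of the 23, 1 was called higher and 1 lower in liver without G2A liver 3 (24.4% of all genes). The same counts arose in MEFs without WT MEF 3 (23.2%). The partners of the members above included G3bp1, which binds Usp10 and was at 174 to 188 FPKM in WT liver and 158 to 165 in G2A liver, and at 11112 to 13957 normalized reads in WT MEFs and 15667 and 15965 in G2A MEFs. Its groups did not overlap in either tissue, lower in G2A liver and higher in G2A MEFs, and neither difference passed (adjusted p = 0.165 and 0.33). Pcna, a target of Usp1, was at 629 to 673 FPKM in WT liver and 404 to 546 in G2A liver (-0.48, adjusted p = 0.114; -0.60, adjusted p = 0.00997 without G2A liver 3), and Wdr48, the activator of Usp1, at 19.8 to 20.8 and 19.1 to 21.3.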

How the data were processed

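BGI sequenced Trizol-extracted total RNA, and TopHat2 2.1.1 mapped reads trimmed to 50 bp to mm9, per the labels' protocols. Cufflinks 2.2.1 and mm10 stand beside these in the submitters' processing notes. The deposited liver values were taken as FPKM that the authors made with Cufflinks: their header gives no unit, so this rests on the tool named in the processing notes and on values that are not whole. The deposited MEF signal consists of gene reads divided by 1 factor per library: after division by the smallest value, 100% of values were whole within 0.01, and between 63.8% and 69.4% of values of 1 to 10 reads were even. The annotation, the counting and its use of strand were not given in the sources used here. Values of the 19 members that overlap another annotated gene are therefore uncertain.

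For liver and for MEFs, limma 3.58.1 (R 4.3.3, variance trend) modelled log2(value + 1) by genotype, with Benjamini-Hochberg adjustment over all genes and a threshold of 0.05. Fold changes are on that scale and understate changes of low genes. Genes needed an FPKM of 1 in 3 liver libraries, or 10 normalized reads in 2 MEF libraries. Between tissues, both fold changes were subtracted and divided by their joint standard error (Satterthwaite approximation). edgeR 4.0.16 and DESeq2 1.42.0 were run on the whole MEF reads as alternatives. The fits were tested on simulated data. Gene positions and exon lengths came from GENCODE M1 (NCBIM37).

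Members, gene lists, role groups and motifs were chosen with earlier results of these data known. Genes were named by role, by groups that do not overlap (up to 15 per tissue), by the 3 highest and lowest levels, by passing a test, and by the 5 smallest p-values of the difference. Usp15, Usp16, Usp22, Usp31 and the partners and other deubiquitinases with values were named also after their values were seen. Alternatives were another pseudocount, filter, scaling, trend, library weights, a replicate block, each library left out and, after seeing the data, embryo sex, edgeR without WT MEF 3, and the difference between tissues without WT MEF 3, alone or with G2A liver 3.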

Additional observations from a re-analysis of the deposited data

Results flagged for a closer look

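For 3 members every G2A library lay on one side of every WT library in liver and on the opposite side in MEFs. Usp14 and Usp39 were lower in G2A liver and higher in G2A MEFs, with liver minus MEF differences of -0.67 and -0.65 in log2 fold change. Usp33 was higher in G2A liver and lower in G2A MEFs, with a difference of 0.27. Its liver groups nearly touched, with the highest WT liver at 19.76 FPKM and the lowest G2A liver at 19.79. The test of the difference itself gave adjusted p-values of 0.0797, 0.121 and 0.257, so none passed. Over all genes tested in both tissues 9.6% showed such opposite separation.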

How the results depend on the processing

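In liver the count of members past the test (0) was the same under another pseudocount, filter, scaling or trend and with embryo sex in the model. It was 20 of 40 (11 higher, 9 lower) with library weights, which called 6057 of all 12938 genes, and ranged from 0 to 11 when 1 library was left out, the 11 arising without G2A liver 3, when 3152 genes were called. The members' median log2 fold change in liver, 0.0038, became -0.017 with median-ratio scaling and -0.036 with quantile normalization, and -0.044 to 0.022 when 1 library was left out.

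In MEFs the count (0) was 16 of 40 (10 higher, 6 lower) with library weights (6124 of all 13241 genes) and 1 with DESeq2 (1013 genes). It ranged from 0 to 5 when 1 library was left out, the 5 arising without WT MEF 3 (3075 genes), and edgeR without that library gave 6 (2 higher, 4 lower; 3222 genes). The median in MEFs, 0.024, was 0.045 with no filter, 0.055 with quantile normalization, -0.035 with library weights, -0.060 with embryo sex, -0.018 for edgeR without WT MEF 3, and -0.048 to -0.0015 when 1 library was left out. With embryo sex in the model the MEF fold changes compare G2A with WT MEF 3 alone, so no count is given for that fit. The fit without MEF_G2A replicate 3 was not run, since no column matched that sample.

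For the difference between tissues the count (0) was 1 without G2A liver 3 (948 of all 10818 genes), 8 without WT MEF 3 (3260) and 11 without both (4084). No count is given with embryo sex in the model, where the MEF side rests on WT MEF 3 as the only WT library. The fits with embryo sex, those without WT MEF 3 for the difference and for edgeR, and the fit without both libraries were chosen after seeing the data. Usp18 turned sign: its liver minus MEF difference of 0.85 was 0.84 without G2A liver 3 and became -1.59 without WT MEF 3 and -1.61 without both libraries. With embryo sex in the model the difference was 5.78. Its MEF side sets the G2A libraries against WT MEF 3 alone, the library in which Usp18 was high.

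Whether the sample numbers mark pairs could not be decided. Deviations of same-numbered libraries from their group means correlated at 0.182, -0.0992 and 0.0993 in liver and at 0.126 and -0.0331 in MEFs. With so few libraries per group these deviations depend on each other, so they neither show nor exclude pairing. With the number as a replicate block, 0 members passed in liver, 8 in MEFs (4 higher, 4 lower; median -0.017; 3707 of all genes) and 9 in the difference (3690 of all genes). Since WT MEF 3 then has no partner, the MEF fold changes under the block equal those without it, and Usp18 reversed to 1.36 in MEFs and to -1.59 in the difference. The causes of these changes were not tested. Read depth in liver is unknown, and with 2 G2A MEF libraries small differences could not be resolved.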
